A study of Mus musculus with 2 samples.

Results

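The let-7 family is a group of microRNAs (miRNAs, short RNAs that guide Argonaute proteins to matching sites in messenger RNAs) that is conserved across animals. Each gene is transcribed as part of a longer primary RNA, from which Drosha cuts a hairpin and Dicer then releases a short duplex whose 5p strand is the main mature form. Targets recognised through the seed, the bases near the 5′ end, include Lin28, Hmga2 and Ras family messages, and let-7 is known to be low in embryonic cells and to accumulate in differentiated ones. LIN28, itself a let-7 target, binds the loop of let-7 precursors and blocks their processing. The 10 genes described here are those let-7 and miR-98 genes that do not lie beside Mir99a or Mir100, chosen by name from the 2202 miRNA genes of the count tables: Mirlet7a-1, Mirlet7f-1, Mirlet7d, Mirlet7c-2, Mirlet7b, Mirlet7f-2, Mir98, Mirlet7e, Mirlet7g and Mirlet7i. All 10 were found. Mirlet7e departs from that description in part, since the annotation places it 94 bases from Mir99b, a member of the same miR-99/100 family.

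The RNA came from C2C12, a mouse myoblast line obtained from ATCC that was derived from injured thigh muscle of the C3H strain, and the sequenced fraction was under 30 nucleotides. The labels number them as 2 biological replicates of 1 group and name no treatment, genotype change, time or culture stage, so no conditions can be compared. Nothing says that they came from separate cultures, and tests between them measure only how these libraries differ. On the strands of miRNA genes, 27661907 reads were counted in replicate 1 and 15025315 in replicate 2. Levels are counts per 1e+06 of these reads (CPM). Mir21a took 23.1% of them in replicate 1 and 53.5% in replicate 2, so every other gene had a smaller remainder to share in replicate 2. Of 9 muscle miRNA genes checked, 3 reached 1 CPM in both libraries, with a sum of 2653 and 1053 CPM that came almost wholly from Mir206, while Mir1a-1, Mir133a-1 and Mir133a-2 had no read. The 6 neural marker genes summed to at most 0.0723 CPM and the 8 matched pluripotency genes to at most 0.532 CPM. Other markers did have reads. The 5 blood genes summed to 220 and 126 CPM, with 2 of them at 1 CPM or more in both libraries. The endothelial marker, 1 gene, had 213 and 134 CPM. Epithelial markers summed to 20.9 and 16.8 CPM and the liver marker to 3.90 and 1.26 CPM. Reads that mapped to several places are outside all these sums, so a low sum does not show that a mature form is absent.

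The mature 5p sequences are shown first because the copy number of each form decides how its reads can be assigned to a gene. They come from RefSeq (GRCm38.p6), where all 10 genes were matched and the hairpins were identical to those of GENCODE M21. Capitals mark the seed, bases 2 to 8.
let-7a-5p (Mirlet7a-1): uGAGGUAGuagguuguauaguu
let-7f-5p (Mirlet7f-1 and Mirlet7f-2): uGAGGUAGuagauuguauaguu
let-7c-5p (Mirlet7c-2): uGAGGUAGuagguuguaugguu
let-7b-5p (Mirlet7b): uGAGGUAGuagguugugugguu
let-7d-5p (Mirlet7d): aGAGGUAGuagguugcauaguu
let-7e-5p (Mirlet7e): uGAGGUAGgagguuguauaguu
let-7g-5p (Mirlet7g): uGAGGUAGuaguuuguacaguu
let-7i-5p (Mirlet7i): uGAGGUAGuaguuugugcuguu
miR-98-5p (Mir98): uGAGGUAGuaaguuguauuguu

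The 10 genes encode 9 distinct forms of 22 bases, and all 9 carry the same seed. Counted from 1 at the 5′ end, 14 of the 22 positions hold 1 base in every form, and the 8 that vary are 1, 9, 11, 12, 16, 17, 18 and 19. Relative to let-7a-5p, let-7f-5p differs by G12A, let-7c-5p by A19G and let-7e-5p by U9G, a single base each. From let-7b-5p to let-7c-5p the change is G17A. The 2 most abundant genes encode the forms let-7i-5p and let-7g-5p, which differ from each other at 2 positions, and let-7i-5p differs from let-7a-5p at 4.

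**Figure D1:**
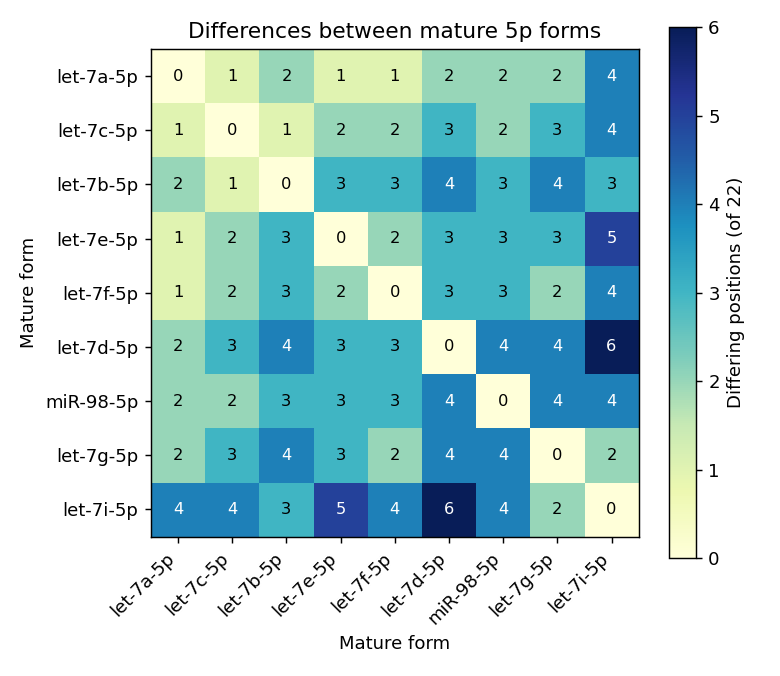
Number of differing positions, of 22, between each pair of the 9 mature 5p forms, with the forms on both axes and darker cells for more differences. Single differences link let-7a to let-7c, let-7e and let-7f and let-7b to let-7c, and the largest number, 6, separates let-7d from let-7i.

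A form counted as multi-copy when its 5p sequence also stood in the hairpin of an annotated miRNA gene at another place. This applied to 4 genes, since let-7a-5p is also in Mirlet7a-2, let-7c-5p also in Mirlet7c-1, and let-7f-5p in both Mirlet7f-1 and Mirlet7f-2. The other 6 genes, Mirlet7d, Mirlet7b, Mir98, Mirlet7e, Mirlet7g and Mirlet7i, each encode a form found in no other annotated hairpin. Copies outside the annotated miRNA genes were not searched for. The hairpins of the 4 multi-copy genes follow, with the mature strands of both arms in capitals, because the arms differ in how far they tell the copies apart.
Mirlet7a-1: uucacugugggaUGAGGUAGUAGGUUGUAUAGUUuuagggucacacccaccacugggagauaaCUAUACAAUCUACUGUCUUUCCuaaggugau
Mirlet7c-2: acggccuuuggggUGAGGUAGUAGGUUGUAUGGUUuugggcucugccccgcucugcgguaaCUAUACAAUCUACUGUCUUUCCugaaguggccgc
Mirlet7f-1: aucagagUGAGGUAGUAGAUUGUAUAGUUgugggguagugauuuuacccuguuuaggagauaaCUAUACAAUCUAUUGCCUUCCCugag
Mirlet7f-2: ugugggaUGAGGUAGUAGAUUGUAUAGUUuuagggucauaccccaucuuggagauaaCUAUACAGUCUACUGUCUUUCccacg

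Mirlet7a-1 and Mirlet7c-2 have no mature strand of their own. Their 3p strands are identical to each other, within a shared stretch of 26 bases, and their 5p strands are those of Mirlet7a-2 and Mirlet7c-1. Mirlet7f-1 and Mirlet7f-2 share the 5p strand only, and each has a 3p strand found in no other annotated hairpin. The hairpins of the let-7f genes part at the first base after the 5p strand, whereas the let-7a and let-7c pairs each share 1 more base there.

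On mm10, Mirlet7a-1 (chromosome 13, 48538179 to 48538272), Mirlet7f-1 (48537829 to 48537917) and Mirlet7d (48536012 to 48536114) lie on the minus strand in annotated exons of the long non-coding RNA 6720427I07Rik. Mirlet7c-2 (chromosome 15, 85706603 to 85706697) and Mirlet7b (85707319 to 85707403) lie on the plus strand in exons of the non-coding transcript Lncppara, with 621 bases between them. Mirlet7f-2 (chromosome X, 151912346 to 151912428) and Mir98 (151913214 to 151913321) lie on the plus strand in an intron of Huwe1, which encodes a ubiquitin ligase. An intron of Spaca6 holds Mirlet7e (chromosome 17, positions 17830352 to 17830444, plus strand) between Mir99b and Mir125a. Wdr82 holds Mirlet7g in an intron (chromosome 9, positions 106178840 to 106178927, plus strand), and Mirlet7i (chromosome 10, 122985640 to 122985724, minus strand) overlaps an exon of D630033A02Rik, annotated as a transcribed processed pseudogene.

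The genes together took 13.0% of the counts in replicate 1 (exact 95% binomial interval 12.97 to 12.99) and 5.54% in replicate 2 (5.53 to 5.56), a mean of 9.26% ± 5.26 (SD, n = 2). With Mir21a left out of the totals the shares were 16.9% and 11.9%. These and later intervals hold counting error inside 1 library alone and leave out the difference between the libraries. They also treat every read as a separate molecule, because PCR copies cannot be told apart here. All 10 genes reached 1 CPM in both libraries, a level met by 320 of the 2202 genes. Of the 10, 7 reached 1000 CPM in both, as did 62 genes of the whole table.

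Mirlet7i, encoded in a locus of its own, reached 66493 CPM (replicate 1) and 26931 CPM (replicate 2), ranks 3 and 6 among all genes. It alone made up 51.2% and 48.6% of the counts on the 10 genes. Mirlet7g, also alone in its locus, followed with 24517 and 9860 CPM. The ratio of Mirlet7i to Mirlet7g was nearly the same in both libraries, 2.71 and 2.73, although both genes had a lower CPM in replicate 2.

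Mirlet7b reached 15816 and 7945 CPM and was the third of the family in both libraries. Mirlet7d had 8200 and 3759 CPM, Mir98 6860 and 2577 CPM, and Mirlet7e 5409 and 3104 CPM. In each library the lowest of these 6 single-copy genes exceeded every multi-copy gene. Their levels ran from 5409 to 66493 CPM in replicate 1 and from 2577 to 26931 CPM in replicate 2.

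The multi-copy genes were lower. Mirlet7f-2 had 2093 and 1006 CPM, Mirlet7f-1 251 and 121 CPM, Mirlet7c-2 107 and 94.5 CPM, and Mirlet7a-1 42.0 and 47.3 CPM. The pair with no mature strand of its own, Mirlet7a-1 and Mirlet7c-2, thus had the lowest levels of the 10, with 1163 and 710 reads on Mirlet7a-1. Single-copy genes held 97.9% ± 0.26 of the family's counts and multi-copy genes 2.10% ± 0.26 (SD, n = 2).

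**Figure D2:**
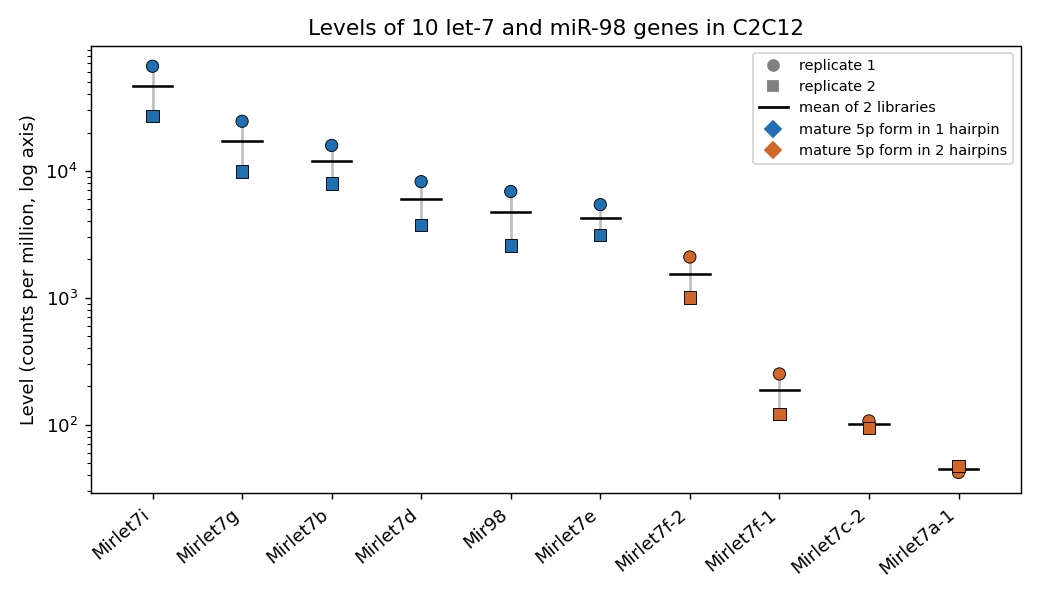
Level of each gene in CPM on a log axis, with circles for replicate 1, squares for replicate 2 and a bar for their mean, and colours for genes whose mature 5p form is in 1 or in 2 annotated hairpins. The 6 single-copy genes stand above the 4 multi-copy ones, and Mirlet7a-1 is the only gene whose square lies above its circle.

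Reads that mapped to several places have a row of their own in the tables. It counts 18382947 for replicate 1 and 5599235 for replicate 2, beside 3590200 and 833068 reads on the 10 genes. The tables do not say which miRNAs the multi-mapping reads came from, so the part of let-7a, let-7c and let-7f in that row was not tested. The counts of the multi-copy genes can therefore not be read as the levels of these mature forms. Summed over both genes of a form, let-7f reached 2344 and 1127 CPM, let-7c 238 and 186 CPM, and let-7a 89.1 and 74.0 CPM. Mirlet7a-2, next to Mir100, and Mirlet7c-1, next to Mir99a, had 47.1 and 26.8 CPM and 131 and 91.8 CPM. In both libraries the counts on the 2 genes outside and the 2 genes inside those clusters were thus low. Mir100 had 10118 and 4386 CPM and Mir99a 19215 and 8758 CPM. Since multi-mapping reads are left out, this gap cannot be read as one between mature forms.

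The order of the mean levels was Mirlet7i, Mirlet7g, Mirlet7b, Mirlet7d, Mir98, Mirlet7e, Mirlet7f-2, Mirlet7f-1, Mirlet7c-2 and Mirlet7a-1. It was the same in each library except that Mirlet7e stood above Mir98 in replicate 2. Neighbours were compared through the mean over both libraries of their log2 ratio inside each library. The spread between replicates implies an SD of 0.49 for such a mean, and a pair whose mean was smaller, or whose ratio changed sign between the libraries, counted as not separated. Mirlet7g and Mirlet7b (0.47 ± 0.23), Mirlet7d and Mir98 (0.40 ± 0.20), and Mir98 and Mirlet7e (0.04 ± 0.43, mean log2 ratio ± SD, n = 2) were not separated. The means of the other 6 neighbouring pairs exceeded 0.49, up to 3.06 ± 0.01 for Mirlet7f-2 over Mirlet7f-1. These SDs cover differences between the libraries only, and not a bias between genes that is the same in both. The smallest of them, 0.79 ± 0.61 for Mirlet7f-1 over Mirlet7c-2, rests on replicate 1, with log2 ratios of 1.23 in replicate 1 and 0.36 in replicate 2. No p-value is given for this order, because an exact permutation test on 2 libraries cannot reach p under 0.05. All mature 5p strands have the same length. Levels per 100 bases of hairpin exchanged only Mir98 and Mirlet7e.

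Genes of 1 locus are known to arise from a common primary RNA. Their counts differed widely, but each ratio of let-7 genes inside a locus given here sets a single-copy gene over a multi-copy one. Reads of the multi-copy genes may stand in the multi-mapping row, and its part in these ratios was not tested. In the locus on chromosome 13, Mirlet7d had 32.7 times the reads of Mirlet7f-1 in replicate 1 (exact 95% interval 31.9 to 33.5) and 31.0 times in replicate 2 (29.6 to 32.5). Against Mirlet7a-1 it had 195 and 79.5 times the reads. The ratio of the unique Mirlet7d to Mirlet7f-1 was thus stable between the libraries, while that to Mirlet7a-1 moved 2.45-fold.

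The locus on chromosome 15 had a similar gap, with 148 times as many reads on Mirlet7b as on Mirlet7c-2 in replicate 1 and 84.1 times in replicate 2. On chromosome X, Mir98 and Mirlet7f-2 lay closer together, with ratios of 3.28 (3.25 to 3.31) and 2.56 (2.51 to 2.61). The let-7f genes share their 5p strand but lie on different chromosomes. Mirlet7f-2 had 8.34 times the reads of Mirlet7f-1 in replicate 1 (8.13 to 8.55) and 8.30 times in replicate 2 (7.90 to 8.71), intervals that overlap.

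Mirlet7e can be set beside neighbours that are no let-7 genes. Mir99b, upstream, had 17600 and 9427 CPM, or 3.25 and 3.04 times the reads of Mirlet7e. Mir125a, downstream, had 4713 and 1758 CPM, or 0.871 and 0.567 times those of Mirlet7e. By locus, the share of the family's counts was 49.9% ± 1.88 for Mirlet7i, 18.3% ± 0.78 for Mirlet7g, 13.4% ± 1.58 for the Mirlet7b locus, 6.81% ± 0.38 for the Mirlet7d locus, 6.68% ± 0.31 for the Mir98 locus and 4.88% ± 1.01 for Mirlet7e (SD, n = 2).

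**Figure D3:**
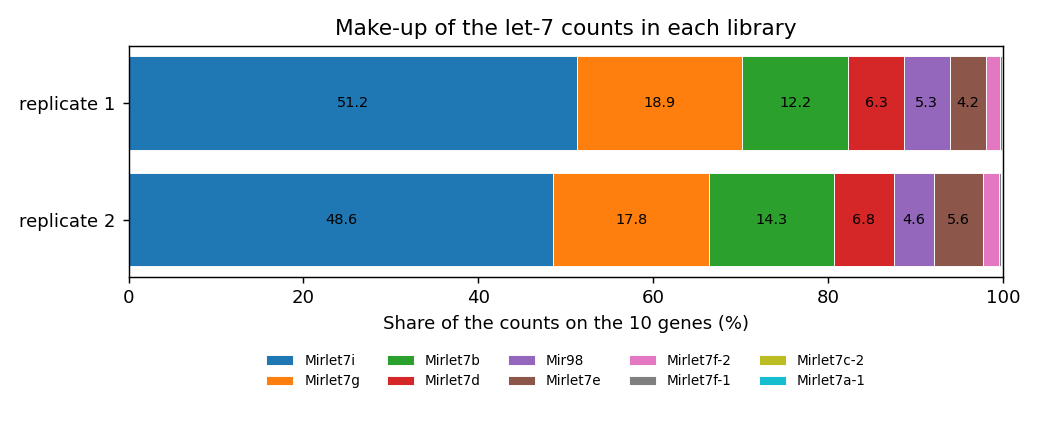
Share of the counts on the 10 genes taken by each gene, in percent on the horizontal axis, with a stacked bar for each library. Mirlet7i takes 51.2% and 48.6%, and the segments of Mirlet7f-1, Mirlet7c-2 and Mirlet7a-1 are too thin to see at this scale.

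The libraries were then compared gene by gene. After trimmed-mean (TMM) scaling in edgeR, which moves every log2 ratio by 0.90 against library totals, the edgeR common coefficient of variation over all tested genes was 34.3%, which implies an SD of 0.70 for a log2 ratio of replicate 2 over replicate 1. All 10 let-7 genes passed the exact binomial test (adjusted p under 0.05, Benjamini-Hochberg over 556 genes), 3 of them higher and 7 lower in replicate 2. Of all genes tested, 231 passed, or 41.5%, of which 137 were higher (24.6%) and 94 lower (16.9%). DESeq2 size factors gave 22.3% higher and 19.2% lower. By library totals 59.4% passed, 4.68% higher and 54.7% lower, and the let-7 genes split into 1 higher and 9 lower. Abundant genes pass this test readily, and of 71 genes with a mean of at least 1000 CPM it called 67.

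By size, 2 of the 10 let-7 genes had a TMM-scaled log2 ratio beyond the SD of 0.70, as did 178 of 556 genes tested and 10 of the 71 genes with a mean of at least 1000 CPM. Their median log2 ratio was -0.16, against 0.09 over all genes tested and -0.01 over those 71. Their median absolute log2 ratio was 0.32, against 0.41 and 0.24. Mirlet7i had a log2 ratio of -0.41, Mirlet7g -0.42, Mir98 -0.52, Mirlet7d -0.23, Mirlet7f-2 -0.16, Mirlet7f-1 -0.15 and Mirlet7b -0.10. Mirlet7e was slightly higher in replicate 2, at 0.10.

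The remaining pair, which shares both arms with other hairpins, lay on the other side. Mirlet7a-1 had a log2 ratio of 1.07 (counting SE 0.07, adjusted p = 1.54e-49, exact binomial test), or 2.09-fold higher in replicate 2. Mirlet7c-2 had one of 0.72 (counting SE 0.05, adjusted p = 1.79e-49, exact binomial test), or 1.64-fold. That is only just beyond the SD of 0.70, and with DESeq2 size factors the ratio of Mirlet7c-2 was 0.66, below it. By library totals the other 8 genes had log2 ratios from -1.41 to -0.80, Mirlet7a-1 remained higher at 0.17 (adjusted p = 0.0262, exact binomial test), and Mirlet7c-2 was lower, at -0.18. The counterparts of this pair in the miR-99/100 clusters had log2 ratios of 0.08 for Mirlet7a-2 (adjusted p = 0.509, exact binomial test) and 0.38 for Mirlet7c-1. The fraction of reads that mapped to several places also differed between the libraries, at 33.4% in replicate 1 and 22.8% in replicate 2. Its part in the ratios was not tested.

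**Figure D4:**
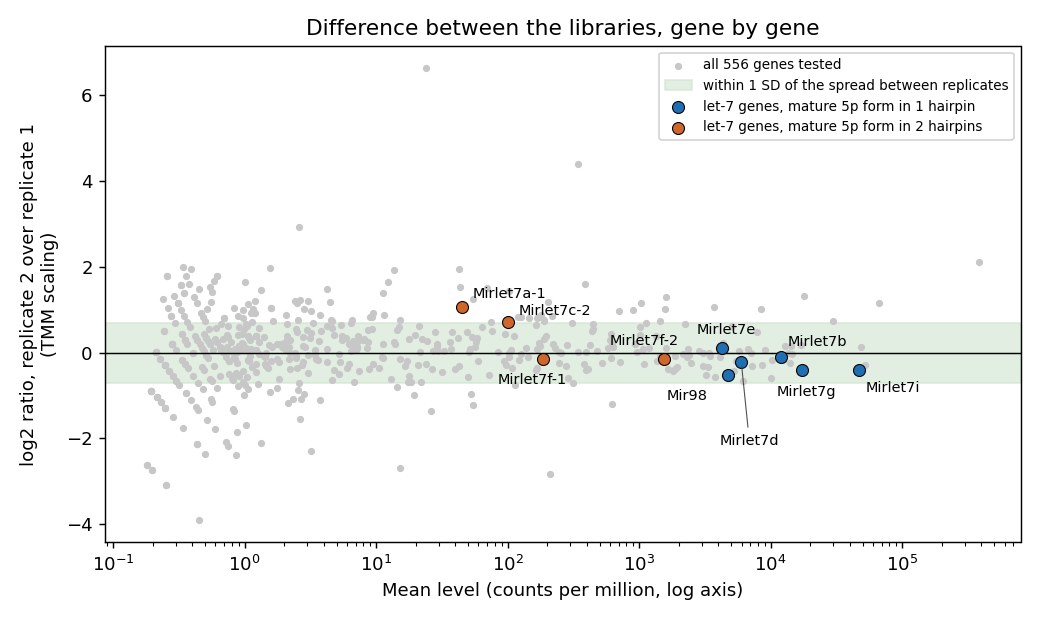
TMM-scaled log2 ratio of replicate 2 over replicate 1 against mean level in CPM (log axis) for the 556 genes tested, with the 10 let-7 genes in colour and a band for 1 SD of the spread between replicates (0.70). Mirlet7a-1 at 1.07 lies above the band, Mirlet7c-2 at 0.72 lies only just above it, and the other 8 lie within it.

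Strand decides whether the counts of 2 genes appear at all. The hairpin of Mirlet7f-1 overlaps the predicted miRNA gene Gm24111 on the other strand (chromosome 13, 48537825 to 48537921), and that of Mirlet7e overlaps Gm25927 (chromosome 17, 17830343 to 17830459). Counted on either strand, Mirlet7f-1 and Mirlet7e had 0 reads in both libraries, against 6942 and 1822 and against 149614 and 46632 reads on their own strand. On their own strands the predicted genes had 0 and 1 read (Gm24111) and no read (Gm25927), so nearly every read at these places lay on the let-7 strand. The other 8 genes had at most 5 reads on the opposite strand.

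In the loops between the arms, LIN28 is known to bind GGAG through its zinc knuckles and a GAU motif through its cold shock domain. Not every let-7 loop holds these letters. LIN28 was not measured here. The loop sequences of 4 genes show the combinations, with GGAG or GAU in capitals.
Mirlet7g: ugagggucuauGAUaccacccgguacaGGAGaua
Mirlet7i: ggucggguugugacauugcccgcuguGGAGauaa
Mirlet7b: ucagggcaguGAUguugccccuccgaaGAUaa
Mirlet7c-2: uugggcucugccccgcucugcgguaa

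Searched on the hairpin strand only, GGAG stood in the loops of 7 of 10 genes, all but Mirlet7c-2, Mirlet7b and Mir98, against 24.6% of the 61 RefSeq miRNA loops of 23 to 36 bases, the lengths of the let-7 loops. GAU, leaving out matches that share a base with GGAG, stood in 5 of 10, against 23.0% of those loops. The 5 were Mirlet7f-1, Mirlet7d, Mirlet7b, Mir98 and Mirlet7g. The let-7 loops themselves were not left out of the 61, so these shares are not those of a separate set. Levels overlapped between genes with and without each motif. Genes with GAU had mean levels from 186 to 17189 CPM and those without it from 44.6 to 46712 CPM. Only these exact letters were searched for, and the matches are descriptions of the letters and not of binding.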

How the data were processed

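The authors deposited, for each of the 2 libraries, whole-number read counts for 2202 miRNA genes in 3 columns: either strand, the strand of the gene, and the opposite strand. The mm10 build and GENCODE M21 annotation are named per the file headers. An adapter trimming protocol is named per the labels. Which aligner and counter were used is not given in these sources. Counts are per hairpin and do not separate its arms. Rows that name no gene (49.7% of reads in replicate 1, 38.8% in replicate 2) stayed out of totals and tests. A count of 0 allows up to 3 counts, or 0.108 and 0.2 CPM.

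The gene-strand column was used. All identifiers matched GENCODE M21, and positions, hosts and hairpins came from it. Genes with at least 10 counts over both libraries were scaled with TMM (edgeR 4.0.16, R 4.3.3). Each pair of counts went through an exact binomial test (two-sided, Benjamini-Hochberg adjusted, called under 0.05), and 0.5 was added to counts before log2 ratios. Intervals came from SciPy 1.17.1. The test was tried on simulated counts with counting noise alone, and the coefficient of variation on simulated counts with a known spread. The former does not cover the spread between these libraries. The alternatives tried were size factors from DESeq2 1.42.0, plain totals, other filters, other denominators, either-strand counts, and each library alone.

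The members and lists were chosen with earlier results of these data known. Genes named in the text beside the 10 members were fixed as the other let-7 genes, the neighbours in the miR-99/100 clusters, Mir21a, and muscle markers. Gm24111, Gm25927 and the host genes were not on that list and are named because they overlap members.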

Additional observations from a re-analysis of the deposited data

Results flagged for a closer look

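Values above the 3 counts that a count of 0 allows stood in parts of the tables that the levels do not use. The multi-mapping row held 18382947 reads in replicate 1 and 5599235 in replicate 2. The opposite-strand column of Gm24111, which overlaps Mirlet7f-1, held 6942 and 1822 reads, the same numbers as the gene-strand column of Mirlet7f-1. That of Gm25927, which overlaps Mirlet7e, held 149614 and 46632 reads, again the numbers of Mirlet7e. Mirlet7b had 5 reads on its opposite strand in replicate 1, beside 437506 on its own strand. No control libraries were analysed here, and with 2 libraries no test for a library that stands apart was possible.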

How the results depend on the processing

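Without Mir21a in the total, the median level of the 10 genes was 7041 CPM in place of 4487. Per all reads of the library it was 2410, and the share of the 10 genes was 4.96% in place of 9.26%, or 14.4% without Mir21a in the total. By library totals 1 gene, Mirlet7a-1, was called higher in replicate 2 in place of 3, and the log2 ratios of Mirlet7c-2 and Mirlet7e turned to -0.18 and -0.80. With DESeq2 size factors, no filter, a minimum of 50 counts, or either-strand counts, every let-7 gene that was tested kept its direction and its call. The log2 ratio of Mirlet7c-2 was 0.66 with DESeq2 size factors, 0.67 with no filter and 0.68 with a minimum of 50 counts. These values lie below the SD of 0.70 that it narrowly exceeded above. With either-strand counts it stayed at 0.72. Counted on either strand, Mirlet7f-1 and Mirlet7e were at 0 and were not tested, and ratios that involve them could not be computed. Each library alone gave a share of 5.54% to 13.0% of the counts and 97.7% to 98.1% of them on single-copy genes. Taking a shared stretch of at least 20 bases as the mark of a copy chose the same genes. No paired analysis was possible because there is 1 group. Depth limits none of the 10 levels, the lowest of which rests on 710 reads, but the design has no replicate beyond the 2 libraries.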

Other observations

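RefSeq gives let-7 names to the mature products of 2 further genes, Mir7j and Mir7k. Mir7j had 910 and 164 reads, or 32.9 and 10.9 CPM, and its mature form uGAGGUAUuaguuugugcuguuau differs from the common let-7 form in the seed, shown in capitals. Mir7k, whose form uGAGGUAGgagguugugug carries the common seed, had 12 and 2 reads. With these genes, Mirlet7a-2 and Mirlet7c-1 added, the family took 13.0% and 5.56% of the counts. The 10 genes described above thus held nearly all reads counted on genes of the family. Multi-mapping reads are outside these counts, and the part of let-7a, let-7c and let-7f in them was not tested.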
